A study of Homo sapiens with 54 samples.

Results

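Sprouty and related genes of the negative feedback or the output of extracellular signal-regulated kinase (ERK) signalling were described in human medium spiny neuron-like (hMSN-like) cells given dopamine. The members were 10 genes chosen by name, namely SPRY1, SPRY2, SPRY4, SPRED1, SPRED2, SPRED3, ETV4, ETV5, PHLDA1 and IL17RD, out of 60676 genes listed for every library. Their levels were taken in 53 libraries of 18 conditions, and gene positions are those of the deposited tables on hg38. The values are transcripts per 1000000 (TPM), which the authors computed from exon reads and exon length, and the exon and intron reads behind them. All 10 genes had enough exon reads to be tested in each of the 4 experiments.

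Growth factors such as FGF, BDNF and GDNF act through receptor tyrosine kinases, which switch on Ras and, through RAF and MEK, the kinase ERK. ERK turns on a set of genes whose products damp the same pathway, so their RNA levels are often used as a readout of recent ERK activity. Sprouty and SPRED proteins hold back Ras and RAF, IL17RD (also called Sef) is a membrane protein that restrains FGF signalling, and ETV4 and ETV5 are ETS transcription factors that act downstream of FGF and ERK. In striatal neurons ERK is known to respond to dopamine together with glutamate and neurotrophins.

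The cells were differentiated from the H9 (WA09) human embryonic stem cell line with activin A and were kept in medium with BDNF and GDNF, treated and control cultures alike. In the first 2 experiments dopamine was given at 1 mM or at 1 µM, once (Acute) or daily for 5 days (Chronic), each time for 1 h, and RNA was collected either 1 h or 24 h later, counted from the last of these doses. Controls received PBS, and each dose had its own. Dopamine was dissolved in ascorbic acid, so in these experiments it cannot be told apart from its vehicle. In the time course, 2, 3, 4 or 5 daily doses of 1 mM dopamine (2 Day to 5 Day) were compared with ascorbic acid alone (AA), and every culture was collected on the same day of culture. In the last experiment SKF82958, an agonist of D1-like receptors, and quinpirole, an agonist of D2-like receptors, each at 50 µM, were compared with Water. Each group held 3 libraries except 5 Day, of which replicates 2 and 3 were analysed here. Acute cultures were collected earlier in culture than Chronic cultures, so the number of doses and the age of the culture cannot be told apart there. At each dose the same PBS libraries served both, and the labels do not give their day of culture. The Acute or the Chronic groups may therefore differ from PBS in age, which cannot be told apart from treatment. Dose likewise cannot be told apart from experiment. The study calls its replicates independent, but the labels do not say whether those of a group came from separate differentiations, so p-values measure the spread between these libraries, part of which may be technical. All cells came from 1 line, and the cultures were mixtures, so fewer cells of a type and less RNA per cell cannot be told apart.

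Exon reads per library ranged from 5755919 to 27702963 in 52 of the 53 libraries. All 14 neuron and MSN markers were detected in every group, with summed levels of 693 to 1761 TPM in those libraries, and so were neural progenitor markers (1320 to 4276 TPM) and astrocyte markers (121 to 480 TPM). A pair of libraries stood apart. Replicate 1 of 1 mM Acute 24 h had the highest level of the 15 libraries at 1 mM for 8 of the 10 members, all but ETV4 and IL17RD, and a neuron and MSN marker sum of 799 TPM against 1531 and 1349 in its replicates. Replicate 1 of Quinpirole had 137051 exon reads, and 96.7% of its reads were on introns. SPRY2, SPRY4, ETV4 and IL17RD had 0 exon reads in it, SPRED1 had 1 and SPRED2 had 3. Results that rest on these libraries are given with and without them, and leaving them out was chosen after seeing the data. Replicate 2 of 1 µM Acute 1 h was left out only where each library was left out in turn. Apart from Quinpirole replicate 1, it had the lowest TPM of all libraries for SPRY1, SPRY2, SPRY4, SPRED2, ETV4, ETV5 and IL17RD. Introns took 31.2% of its reads, against 23.8% and 20.2% in replicates 1 and 3 of its group.

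Promoter sequences, from 250 bases before to 50 bases after a gene's start, were found in RefSeq (GRCh38.p14) for 8 of the 10 members. ETV4 and ETV5 had no entry. SPRY2 and SPRY4 are shown because, of all pairs of the 10 members, their levels followed each other most closely across conditions when all libraries are taken (without the libraries that stood apart ETV5 and SPRED3 did), and because SPRY4 had the clearest changes in intron reads. Capitals mark the cyclic AMP response element (CRE) half-site TGACG in both and the ETS site CCGGAA in SPRY2. Both lie on the minus strand and are written 5′ to 3′ in the direction of transcription.
SPRY2, chr13:80341077-80341376: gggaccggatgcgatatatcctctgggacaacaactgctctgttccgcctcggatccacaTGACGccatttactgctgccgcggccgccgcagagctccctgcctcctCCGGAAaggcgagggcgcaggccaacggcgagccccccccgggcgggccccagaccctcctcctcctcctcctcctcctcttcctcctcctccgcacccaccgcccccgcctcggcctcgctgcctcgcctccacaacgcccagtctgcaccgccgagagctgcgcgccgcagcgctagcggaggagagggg
SPRY4, chr5:142324198-142324497: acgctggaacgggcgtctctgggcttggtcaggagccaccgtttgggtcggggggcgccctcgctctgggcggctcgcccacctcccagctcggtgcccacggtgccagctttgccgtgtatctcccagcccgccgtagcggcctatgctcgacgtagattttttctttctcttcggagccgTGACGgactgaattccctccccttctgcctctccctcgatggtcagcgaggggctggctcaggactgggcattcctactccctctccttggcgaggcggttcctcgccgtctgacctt
The half-site lay 190 bases before the SPRY2 start and 68 bases before the SPRY4 start used by RefSeq, which lies 2208 bases inside the SPRY4 gene of the deposited tables. The letters TGACG were found on either strand in 24.6% of all 35116 promoters of this length, so their presence is common. SPRED2 also had the half-site, SPRY1 and PHLDA1 had CCGGAA (17.2% of promoters), and SPRED2 and SPRED3 had the AP-1 site TGANTCA (7.71% of promoters). The CArG box of serum response factor was in 1.29% of promoters and in none of the 14 windows of the members, which says only that these letters are not there. A match is not a measured binding site.

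The members differed in level before any dopamine. In the PBS libraries of the 1 mM experiment PHLDA1, a pleckstrin homology-like protein induced by growth factors, was highest at 124 ± 1.46 TPM (SD, n = 3), and IL17RD followed at 95.7 ± 8.49 TPM. SPRY1 at 47.5 ± 2.34 TPM and SPRED2 at 41.6 ± 2.25 TPM came next, and their libraries did not overlap. SPRY2 (39.5 ± 11.3 TPM), SPRED1 (35.9 ± 1.19 TPM) and ETV4 (35.2 ± 2.15 TPM) had overlapping ranges, as did SPRED3 (26.3 ± 1.96 TPM) and ETV5 (25.7 ± 5.09 TPM). SPRY4 was lowest at 21.1 ± 1.18 TPM, also in the PBS libraries at 1 µM and in AA, whereas SPRED1 was lowest in Water. The controls were not alike, since SPRY2 had a mean of 12.1 TPM in PBS at 1 µM and 54.9 TPM in Water. Treated groups were therefore compared only with the control of their own experiment.

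Exon reads were tested with edgeR's quasi-likelihood test, all libraries of an experiment in one fit, and a gene was called at an adjusted p-value under 0.05. The largest number of calls was found in the time course. At 3 Day 7 of the 10 members rose against AA (SPRY1, SPRY2, SPRY4, SPRED3, ETV4, ETV5 and IL17RD), where 7.37% of all genes tested were called and 4.77% rose. At 2 Day 4 rose and PHLDA1 fell (3.88% of genes called), at 4 Day 4 rose (4.38%) and at 5 Day 3 rose (1.63%). SPRY2, SPRY4 and ETV5 rose at all 4 times. At 3 Day the same 7 members lay wholly above AA in TPM, as 7.86% of genes did. SPRY2, SPRY4 and ETV4 kept their calls at 3 Day whichever single library was left out. The counts at the other times rested on single libraries, since 0 members passed at 2 Day or at 5 Day without replicate 1 of AA and 0 at 5 Day without its replicate 2. Without replicate 2 or 3 of AA, 3 passed at 2 Day and 1 at 5 Day, without replicate 2 of 2 Day 1 passed at 2 Day, and without replicate 1 of AA or replicate 2 of 3 Day 4 passed at 3 Day. These 4 comparisons share the AA libraries. Markers of other cell types moved with these groups. Mesenchymal markers summed to 180.5 to 236 TPM in AA, 225 to 340.0 TPM at 2 Day, 269.9 to 464 TPM at 3 Day, 335 to 368 TPM at 4 Day and 259 to 419 TPM at 5 Day, and 4 of the 6 were called higher at 3 Day and 2 at each other time. Astrocyte markers summed to 259.6 to 306 TPM in AA and 335 to 363 TPM at 3 Day, with 3 of 6 called higher there. Both endothelial markers that could be tested, of 4 listed, were called higher at 3 Day, at sums of 0.769 to 0.944 TPM in AA and 2.44 to 2.81 TPM at 3 Day. Of 7 neural progenitor markers 2 were called higher and 3 lower at 3 Day. Interneuron markers summed to 217 to 242 TPM in AA, 166 to 191 TPM at 3 Day and 190 to 211 TPM at 4 Day. At both times 0 of the 3 tested were called. Oligodendrocyte lineage markers summed to 62.2 to 69.0 TPM in AA, 43.8 to 61.5 TPM at 2 Day and 79.0 to 93.5 TPM at 3 Day. They were at 53.5 to 71.8 TPM at 4 Day and 60.7 to 61.2 TPM at 5 Day. The part of these cells in the result was not tested.

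**Figure D1:**
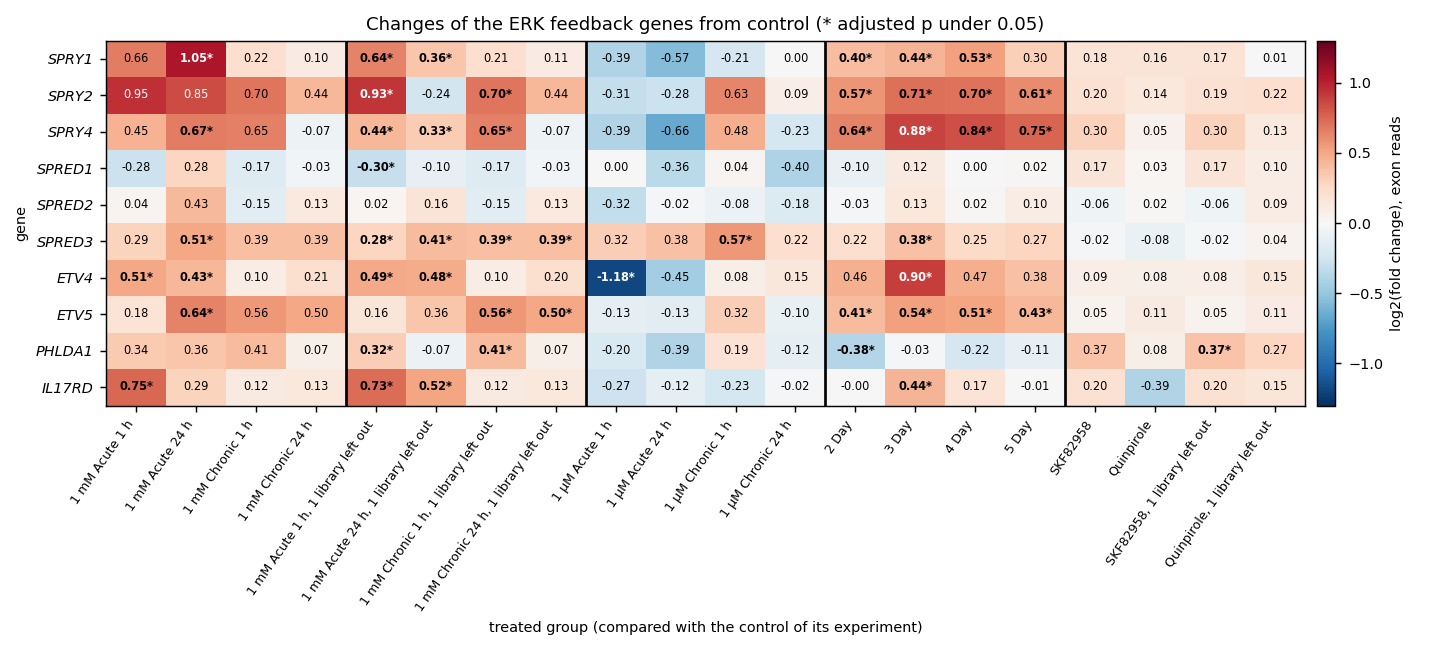
Change of each gene (rows) from the control of its experiment, as log2(fold change) of exon reads (colour and printed value), for every treated group (columns), with an asterisk where the adjusted p-value was under 0.05. Columns marked as having 1 library left out repeat the 1 mM comparisons without replicate 1 of Acute 24 h and the agonist comparisons without replicate 1 of Quinpirole. The most asterisks in a column of the time course stand at 3 Day, and SPRED1 and SPRED2 have none there.

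At 1 mM, ETV4 and IL17RD rose at Acute 1 h (2 of 10 members, 16% of genes called), and 5 members rose at Acute 24 h (15.5%). Leaving out replicate 3 of Acute 1 h ended both calls there, and leaving out any 1 of the PBS libraries or replicate 2 of Acute 1 h ended 1 of them. At Acute 24 h 0 to 3 members passed without any 1 of the PBS or Acute 1 h libraries, replicate 1 or 3 of Chronic 1 h or replicate 1 of Chronic 24 h, and 5 passed without its own replicate 1 (SPRY1, SPRY4, SPRED3, ETV4 and IL17RD, 22.3% of genes called). Without replicate 1 of Acute 24 h, 8 members were called at Acute 1 h, 7 of them higher and SPRED1 lower, but 39.8% of all genes were called as well, 19.9% in the higher direction. At Chronic 1 h and at Chronic 24 h 0 members passed with all libraries (2.08% and 0.663% of genes called), 2 and 1 passed under DESeq2, and 3 and 2 had an unadjusted p under 0.05 in edgeR. Without that library 5 rose at Chronic 1 h (SPRY2, SPRY4, SPRED3, ETV5 and PHLDA1, 18.4% of genes called) and 2 at Chronic 24 h (SPRED3 and ETV5, 8.48%). The 4 comparisons share the PBS libraries. Astrocyte markers summed to 253 to 287 TPM in PBS, 409.9 to 469 TPM at Acute 1 h and 338 to 362 TPM at Chronic 1 h, with 1 of 6 called higher at each time and 1 lower at Acute 1 h. Interneuron markers summed to 211 to 224 TPM in PBS, 114 to 139.5 TPM at Acute 1 h, where 1 of the 3 tested was called lower, 111 to 133 TPM at Acute 24 h, where 2 were, and 117 to 164 TPM at Chronic 1 h. Oligodendrocyte lineage markers were at 83.6 to 98.2 TPM in PBS and 134 to 139 TPM at Chronic 1 h, and neural progenitor markers at 2654 to 3166 and 2296 to 2467 TPM, with 0 of 6 and 1 of 7 called. Neuron and MSN markers summed to 1476 to 1690 TPM in PBS and 1368 to 1432 TPM at Chronic 1 h. At Chronic 24 h neural progenitor markers were at 2083 to 2172 TPM, astrocyte markers at 306 to 397 TPM and oligodendrocyte lineage markers at 109 to 141 TPM. These Chronic 24 h sums did not overlap PBS, whereas those of neuron and MSN markers and of interneuron markers did. The part of all these cells in the result was not tested. At Acute 1 h 7 members lay wholly above PBS in TPM (21.2% of genes did) and SPRED1 wholly below (30.1%), and at Chronic 1 h 6 lay above (23.9%) and SPRED1 below (14.6%). The median log2(fold change) of the 10 members was 0.39 at Acute 1 h, against 0.01 over all genes tested. At Chronic 1 h the median of the members was 0.30, and no value over all genes is given here for that time.

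**Figure D2:**
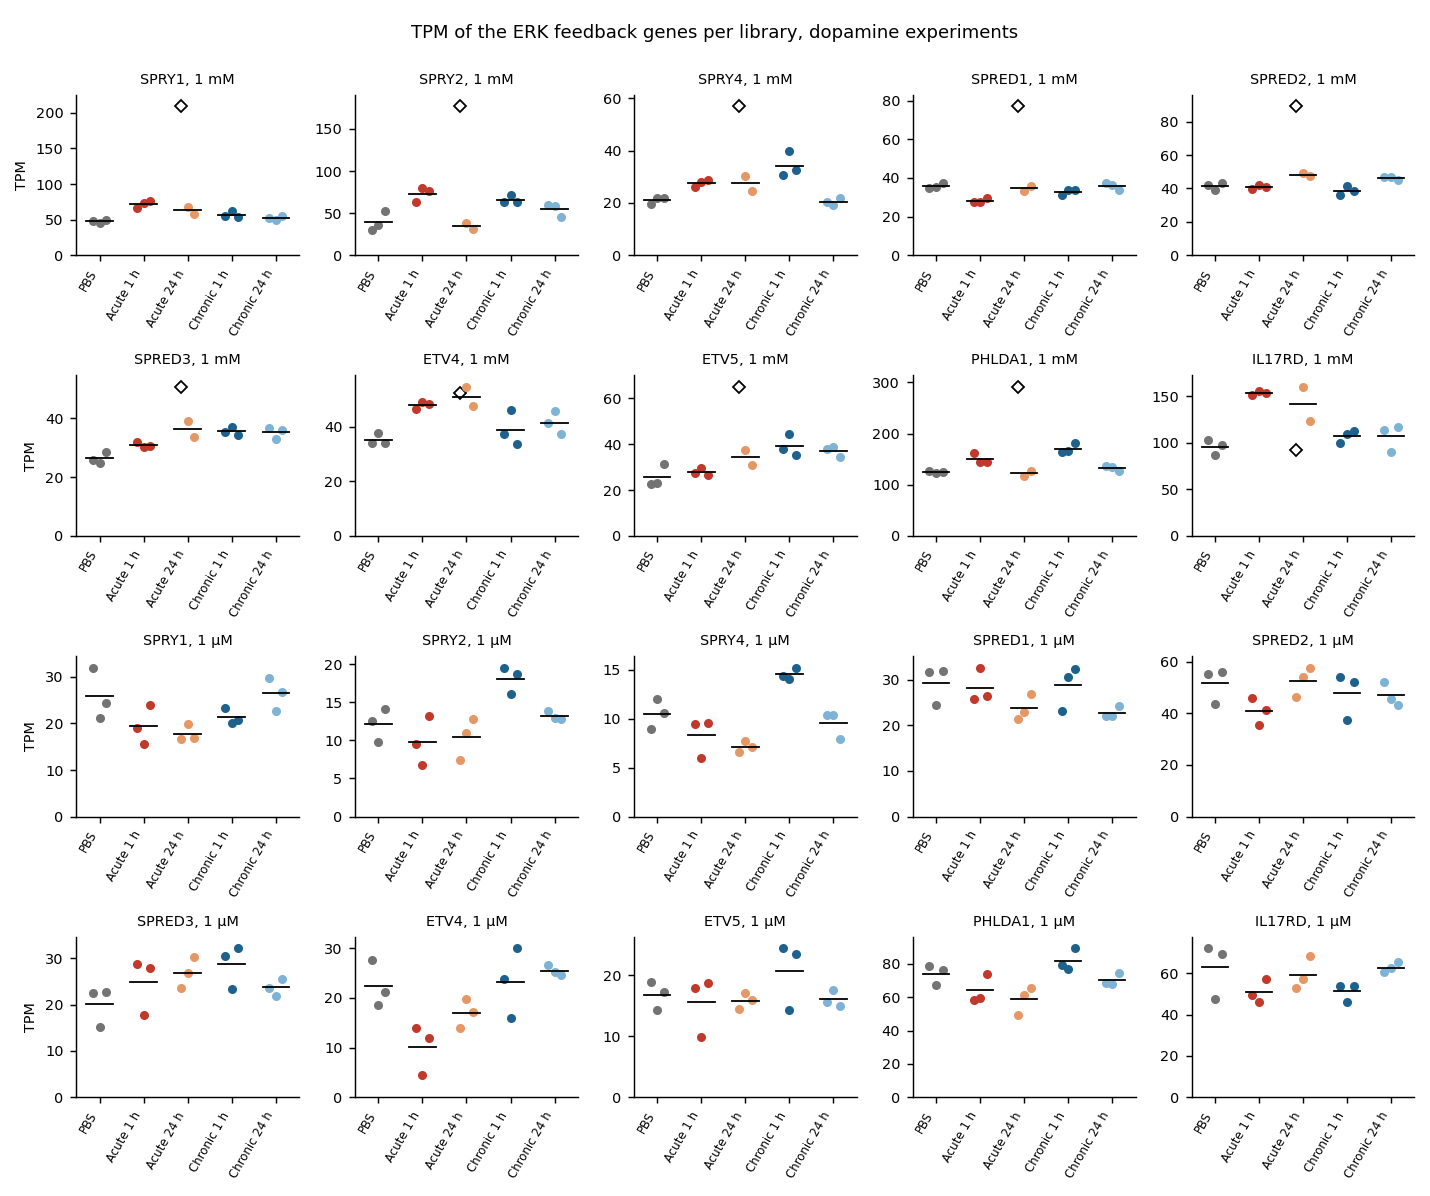
TPM of the 10 genes per library (points) in the 1 mM (upper rows) and 1 µM (lower rows) dopamine experiments, with groups along the horizontal axis. Black lines are group means, and the open diamond is replicate 1 of 1 mM Acute 24 h, which is not in the means. The diamond is the highest point of its panel for 8 genes, and at 1 mM Acute 1 h the points of IL17RD lie between 152 and 155 TPM, above all PBS points.

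SPRY2 (chr13:80335976-80341126, minus strand, 3 annotated exons), a Sprouty protein induced by FGF, had the largest log2(fold change) of the Sproutys 1 h after a single dose of 1 mM dopamine. Its level was 30.6, 35.7 and 52.2 TPM in PBS and 63.8, 79.4 and 76.2 TPM at Acute 1 h. All treated libraries were above all controls, whose own spread was wide. The change did not pass with all libraries (log2(fold change) 0.95, SE 0.45, adjusted p = 0.165) and passed without replicate 1 of Acute 24 h (0.93, SE 0.17, adjusted p = 5.17e-04). At Chronic 1 h SPRY2 was at 63.7, 71.6 and 62.9 TPM, again above all controls (log2(fold change) 0.70, SE 0.17, adjusted p = 0.00916 without that library and 0.486 with it). At Acute 24 h it was at 177, 38.5 and 31.0 TPM, with replicate 1 far above the others, which lay within the control range.

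At 1 µM SPRY2 was lower throughout, at 12.5, 9.74 and 14.2 TPM in PBS and 9.51, 6.76 and 13.1 TPM at Acute 1 h. These groups overlapped. At 1 µM Chronic 1 h its level was 19.5, 16.1 and 18.7 TPM, above every PBS library, without passing (log2(fold change) 0.63, SE 0.19, adjusted p = 0.117). Against Acute 1 h at 1 µM it was higher (log2(fold change) 0.94, SE 0.20, adjusted p = 0.0336), where 1.2% of genes were called. Time-course levels of SPRY2 were 29.7, 27.4 and 30.9 TPM in AA and 47.7, 47.7 and 39.2 TPM at 3 Day (log2(fold change) 0.71, SE 0.12, adjusted p = 0.00293). The groups did not overlap at any of the 4 times.

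SPRY4, another Sprouty, had the lowest level of the members in most controls and rose at all times of the time course. It was at 14.5, 19.7 and 17.9 TPM in AA, at 25.6, 23.5 and 25.1 TPM at 2 Day and at 28.8, 32.2 and 28.8 TPM at 3 Day. Every treated library lay above every AA library, as it did at 4 Day and 5 Day. The log2(fold change) was 0.64 (SE 0.12, adjusted p = 0.00976) at 2 Day and 0.88 (SE 0.12, adjusted p = 5.49e-04) at 3 Day. At 4 Day and 5 Day it was 0.84 (adjusted p = 0.00122) and 0.75 (adjusted p = 0.0120). The 5 Day and 3 Day libraries were compared directly and 0 members passed in edgeR (1.16% of genes called), while ETV4 and IL17RD had an unadjusted p under 0.05 and 2 members passed under DESeq2, with -0.13 for SPRY4 (adjusted p = 0.661).

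In the 1 mM experiment SPRY4 was at 19.7, 21.7 and 21.8 TPM in PBS, 26.1, 28.1 and 28.6 TPM at Acute 1 h and 30.5, 39.6 and 32.6 TPM at Chronic 1 h. Both dopamine groups lay wholly above PBS, and Chronic 1 h wholly above Acute 1 h. The rise passed without replicate 1 of Acute 24 h at Acute 1 h (log2(fold change) 0.44, SE 0.10, adjusted p = 0.00369) and at Chronic 1 h (0.65, SE 0.10, adjusted p = 4.86e-04), and with it neither did (adjusted p = 0.131 and 0.0997). By Chronic 24 h SPRY4 was back at 20.2, 19.3 and 21.9 TPM. That group overlapped PBS and lay below all Chronic 1 h libraries (log2(fold change) -0.72, SE 0.10, adjusted p = 4.55e-04 for Chronic 24 h against Chronic 1 h without that library, 4.89% of genes called, and adjusted p = 0.194 with it).

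Intron reads, a measure of unspliced RNA that the choice of genes did not use, gave the clearest change of any member. SPRY4 had 4.71, 4.73 and 4.20 intron reads per 1000000 exon reads in the 1 mM PBS libraries, 12.7, 12.8 and 11.5 at Acute 1 h and 17.4, 22.4 and 19.8 at Chronic 1 h. The values were 4.63, 7.39 and 4.79 at Acute 24 h and 6.11, 3.53 and 7.33 at Chronic 24 h. The 1 h groups did not overlap PBS, whereas the 24 h groups did. Without replicate 1 of Acute 24 h, its other libraries lay above PBS. At 1 µM the same measure was 1.09, 1.88 and 1.34 in PBS, 6.60, 9.57 and 8.23 at Acute 1 h and 8.59, 9.10 and 9.29 at Chronic 1 h. These rest on few reads, 12 to 18 intron reads per library in PBS and 38 to 120 in the 1 h groups. Every library taken 1 h after dopamine again lay above every control library, although SPRY4 exon levels at 1 µM Acute 1 h, 9.45, 5.97 and 9.57 TPM against 8.91, 12.0 and 10.6 TPM in PBS, overlapped. At 1 µM Acute 24 h and Chronic 24 h the intron values were 0.945, 1.76 and 2.43 and 1.31, 1.23 and 0.455, which overlapped PBS.

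The test of intron reads depends on how libraries are scaled. The share of all reads on introns was 19.5% to 21.8% in PBS and 12.3% to 13.2% at Acute 1 h in the 1 mM experiment. Scaling on exon reads in place of intron reads moved the median of all genes there by -1.07 on the log2 scale. SPRY4 passed under both scalings at Acute 1 h of 1 mM, with log2(fold change) 2.58 (SE 0.29, adjusted p = 2.67e-05) scaled on intron reads, where 45.2% of genes were called and 23.1% rose. Scaled on exon reads the value was 1.47 (SE 0.24, adjusted p = 5.87e-05), where 1.82% of genes rose. At Chronic 1 h of 1 mM SPRY4 was the one member to pass, with 2.09 (SE 0.29, adjusted p = 0.00185, 2.54% of genes called) and 2.07 (adjusted p = 5.68e-04, 1.45%) under the respective scalings. Leaving out replicate 1 of Acute 24 h gave SPRY4 2.50 (adjusted p = 4.49e-06) at Acute 1 h and 2.13 (adjusted p = 1.47e-04) at Chronic 1 h scaled on intron reads, and ETV5 and PHLDA1 then passed at Chronic 1 h too (0.54, adjusted p = 0.0457, and 1.27, adjusted p = 0.0296). The call for SPRY4 at Acute 24 h of 1 mM rested on the scaling, with 1.25 (adjusted p = 0.00544) on intron reads and 0.27 (adjusted p = 0.336) on exon reads. At 1 µM it rose by 2.20 (SE 0.49, adjusted p = 0.00748, 12.8% of genes called) at Acute 1 h and by 3.06 (SE 0.50, adjusted p = 0.00124, 8.57%) at Chronic 1 h, and passed at both scaled on exon reads (adjusted p = 0.00755 and 0.00368). From 1 h to 24 h after the last chronic dose it fell by 1.73 at 1 mM (adjusted p = 0.00968, 0.594% of genes called) and by 3.11 at 1 µM (adjusted p = 0.00154, 6.33%). The doses did not differ detectably in this response at Acute 1 h (difference 0.42, SE 0.54, adjusted p = 0.570, scaled on intron reads), and the sign of the difference turned on exon reads (-0.98, adjusted p = 0.0785).

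In the time course SPRY4 intron reads per 1000000 exon reads went from 5.57, 4.52 and 6.38 in AA to 12.2, 9.79 and 10.5 at 2 Day, 12.4, 12.4 and 13.3 at 3 Day and 13.5, 14.1 and 14.3 at 4 Day. No treated library overlapped AA. The change passed under both scalings at 2, 3 and 4 Day, with 1.28 at 3 Day (adjusted p = 0.00202, 2.53% of genes called), and at 5 Day only scaled on exon reads (adjusted p = 0.0468, against 0.0501 scaled on intron reads). With agonists the values were 8.30, 6.05 and 8.61 in Water, 12.6, 15.3 and 12.4 with SKF82958 and 12.3 and 11.1 with quinpirole, leaving out its replicate 1. Both agonist groups lay above Water without passing (adjusted p = 0.273 and 0.555 scaled on intron reads, 0.132 and 0.643 scaled on exon reads, without that library). SPRY4 (chr5:142310427-142326455 on the minus strand, with 16029 bases from its first to its last base) shares 1163 bases with the antisense gene SPRY4-AS1, and the strand used in counting is not given in the sources used here. SPRY4-AS1 had 489 to 647 intron reads in the 1 mM PBS libraries, 161 to 252 at Acute 1 h and 588 to 672 at Chronic 1 h. It had 126 to 223 in PBS and 111 to 354 at Acute 1 h of 1 µM, 246 to 325 in AA and 208 to 311 at 3 Day, and 242 to 328 in Water and 319 to 462 with SKF82958. Its part in the intron reads of SPRY4 was not tested.

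**Figure D3:**
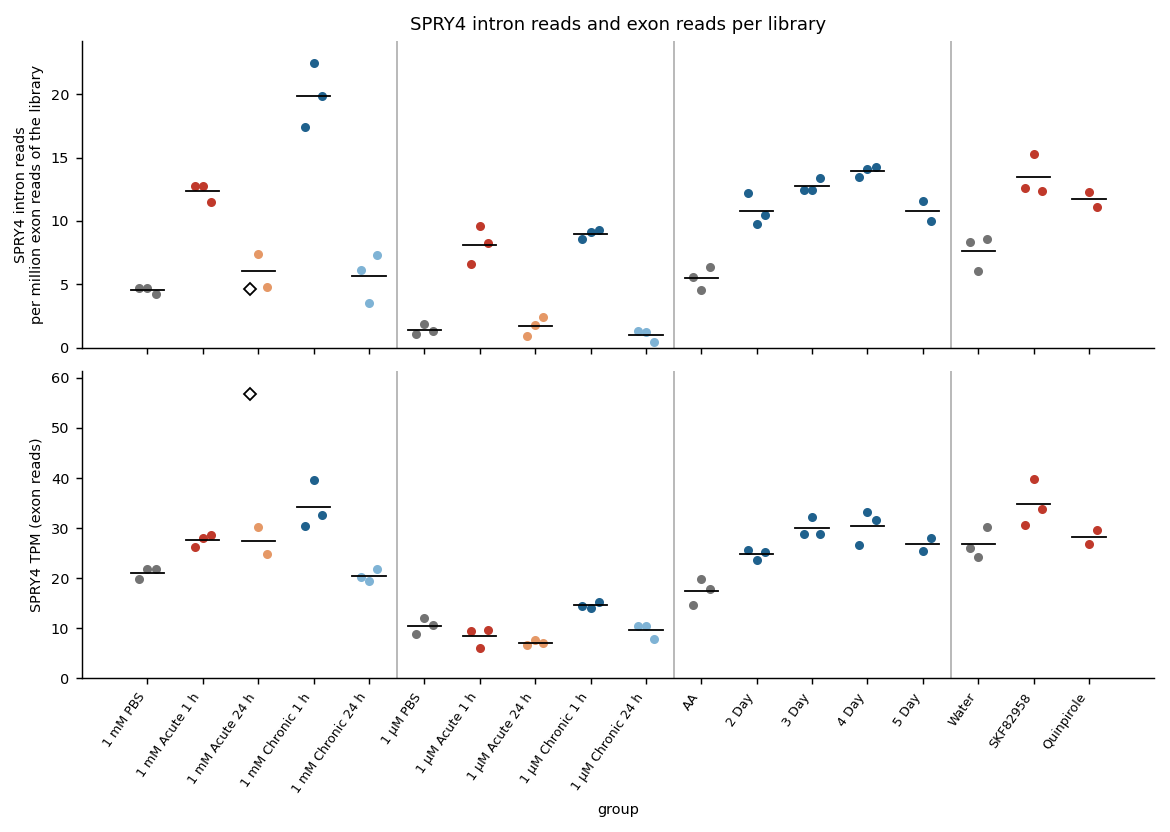
SPRY4 in each library (points), as intron reads per 1000000 exon reads of the library (top) and as TPM from exon reads (bottom), over all 18 groups. Black lines are group means, the open diamond is replicate 1 of 1 mM Acute 24 h, which is not in its mean, and replicate 1 of Quinpirole is left out. In the top panel the 1 h groups of both doses stand above their PBS and 24 h groups, up to 22.4 at 1 mM Chronic 1 h.

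Other members' intron reads gave fewer calls that held under both scalings. ETV5 had 48, 1 and 25 intron reads in the 1 µM PBS libraries and 92, 152 and 144 at Acute 1 h, with no overlap (log2(fold change) 2.53, SE 0.64, adjusted p = 0.0165, and 2.88 with adjusted p = 0.0280 scaled on exon reads). ETV4 introns rose at 3 Day (1.54, adjusted p = 0.00936, and 1.52, adjusted p = 0.0487). SPRY2 introns fell from 1 h to 24 h after a single 1 mM dose (-1.31, adjusted p = 0.0192, 5.93% of genes called, and -1.19, adjusted p = 0.0280). At 1 mM Acute 1 h 7 members passed scaled on intron reads, all higher, but scaled on exon reads only SPRY4 rose while SPRED1, SPRED2 and SPRED3 fell, so no direction is given for the others there. ETV5 overlaps ETV5-AS1 and DGKG, and ETV4 overlaps DHX8, and reads in the shared bases are uncertain.

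SPRY1 (chr4:123396795-123403760, plus strand), the third Sprouty measured, was at 48.5, 44.9 and 49.3 TPM in PBS of the 1 mM experiment and 66.4, 73.1 and 76.1 TPM at Acute 1 h. The groups did not overlap, and the rise passed without replicate 1 of Acute 24 h (log2(fold change) 0.64, SE 0.08, adjusted p = 3.31e-05) but not with it (adjusted p = 0.156). At Acute 24 h it was at 209, 67.6 and 58.4 TPM, and the log2(fold change) of 1.05 (adjusted p = 0.0362) became 0.36 (adjusted p = 0.0121) without replicate 1. Chronic 1 h levels were 54.5, 62.1 and 54.1 TPM, above PBS but below every Acute 1 h library (log2(fold change) -0.43, SE 0.08, adjusted p = 8.74e-04 for Chronic against Acute 1 h without that library, where 34% of genes were called, and adjusted p = 0.375 with it). Across the daily doses SPRY1 rose from 40.0, 49.2 and 46.1 TPM in AA to 63.8, 63.5 and 65.0 TPM at 4 Day (log2(fold change) 0.53, SE 0.09, adjusted p = 0.00514). At 5 Day, with 44.0 and 58.5 TPM, it overlapped AA and did not pass (adjusted p = 0.169).

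The SPRED genes encode relatives of the Sproutys that bring the Ras inactivator neurofibromin to the membrane. SPRED1 (chr15:38252836-38357249, plus strand) was lower at 1 mM Acute 1 h, at 27.5, 27.5 and 29.8 TPM against 34.9, 35.5 and 37.2 TPM in PBS. The groups did not overlap, and the change passed without replicate 1 of Acute 24 h (log2(fold change) -0.30, SE 0.06, adjusted p = 0.00195) and not with it (adjusted p = 0.352). SPRED1 and SPRED2 passed at none of the 4 times of the time course, with log2(fold change) values between -0.10 and 0.13. SPRED2 (chr2:65310851-65432637, minus strand) was at 42.3, 39.1 and 43.4 TPM in PBS and 39.6, 42.2 and 40.6 TPM at 1 mM Acute 1 h, and these groups overlapped.

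SPRED3 (chr19:38388421-38399587, plus strand) rose in comparisons where the other SPREDs did not pass. In the 1 mM experiment its level was 25.9, 24.6 and 28.5 TPM in PBS, 35.4, 37.0 and 34.2 TPM at Chronic 1 h and 36.5, 33.0 and 35.8 TPM at Chronic 24 h. All Chronic libraries exceeded all PBS libraries (log2(fold change) 0.39, SE 0.08, adjusted p = 0.00298 at Chronic 1 h and 0.39, SE 0.08, adjusted p = 0.00718 at Chronic 24 h without replicate 1 of Acute 24 h, and adjusted p = 0.0688 and 0.128 with it). At Acute 24 h it passed with that library (log2(fold change) 0.51, SE 0.10, adjusted p = 0.00996) and without it (0.41, SE 0.08, adjusted p = 0.00435). At 1 µM SPRED3 was the one member to rise at Chronic 1 h, from 22.5, 15.1 and 22.7 TPM to 30.5, 23.4 and 32.1 TPM (log2(fold change) 0.57, SE 0.13, adjusted p = 0.0365, 2.58% of genes called), and leaving out any 1 of the PBS or Chronic 1 h libraries ended the call. At 3 Day it was at 41.2, 44.1 and 39.9 TPM against 32.6, 36.2 and 34.4 TPM in AA (log2(fold change) 0.38, SE 0.08, adjusted p = 0.0125).

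ETV4 (chr17:43527844-43579620, minus strand), a PEA3-family ETS factor, gave opposite changes at the 2 doses. At 1 mM it was at 33.8, 37.7 and 34.1 TPM in PBS and 46.3, 49.0 and 48.3 TPM at Acute 1 h (log2(fold change) 0.51, SE 0.13, adjusted p = 0.0170). At 1 µM it was at 27.6, 18.5 and 21.2 TPM in PBS and 13.9, 4.46 and 11.9 TPM at Acute 1 h (log2(fold change) -1.18, SE 0.26, adjusted p = 0.0145). In both experiments the treated and control libraries did not overlap. The rise at 1 mM did not pass without replicate 1 or 3 of PBS or replicate 2 or 3 of Acute 1 h. At 1 µM Acute 1 h ETV4 was the one member called, where 5.77% of genes were, its lowest library rested on 39 exon reads, and without replicate 1 of PBS it did not pass. In the same comparison interneuron markers went from 119 to 181 TPM in PBS to 58.1 to 95.7 TPM, with 1 of 2 called lower, and 1 of 6 mesenchymal markers was called lower (42.5 to 90.5 and 31.1 to 60.6 TPM). Of 7 neural progenitor markers 3 were called higher and 1 lower there, and the part of these cells was not tested. The difference between the doses passed its own test (log2(fold change) 1.71, SE 0.29, adjusted p = 0.00152, where 2.01% of genes were called) and kept its call whichever library was left out. At 1 µM Chronic 1 h ETV4 was at 23.8, 15.9 and 29.9 TPM, overlapping PBS and above Acute 1 h (log2(fold change) 1.26, SE 0.26, adjusted p = 0.0294). At 3 Day ETV4 was at 54.0, 60.9 and 46.6 TPM against 27.3, 31.1 and 34.2 TPM in AA, and no libraries overlapped (log2(fold change) 0.90, SE 0.13, adjusted p = 7.41e-04). At 5 Day, with 35.8 and 37.3 TPM, the difference from 3 Day did not pass (log2(fold change) -0.52, SE 0.14, adjusted p = 0.0801).

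ETV5 (chr3:186046314-186110318, minus strand), the related ETS factor, was higher after repeated doses than after a single one at 1 mM. It was at 22.6, 22.9 and 31.5 TPM in PBS, 27.3, 29.6 and 26.5 TPM at Acute 1 h and 37.7, 44.5 and 35.2 TPM at Chronic 1 h. Acute 1 h overlapped PBS, and Chronic 1 h lay above both. When replicate 1 of Acute 24 h was left out the rise passed at Chronic 1 h against PBS (log2(fold change) 0.56, SE 0.13, adjusted p = 0.00638) and against Acute 1 h (0.40, SE 0.13, adjusted p = 0.0230), and with it neither passed (adjusted p = 0.152 and 0.220). Time-course levels of ETV5 were 23.9, 27.2 and 25.1 TPM in AA and 33.4, 29.0 and 30.4 TPM at 2 Day (log2(fold change) 0.41, SE 0.08, adjusted p = 0.0155). It stayed above AA in every library at 3, 4 and 5 Day, with log2(fold change) values of 0.54, 0.51 and 0.43.

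PHLDA1 (chr12:76025447-76033932, minus strand) rose at the 1 h times of the 1 mM experiment once replicate 1 of Acute 24 h was left out, and fell at 2 Day of the time course. At 1 mM it was at 126, 123 and 124 TPM in PBS, 162, 144 and 144 TPM at Acute 1 h and 163, 166 and 181 TPM at Chronic 1 h. Both groups lay above PBS, and the rises passed without replicate 1 of Acute 24 h (log2(fold change) 0.32, SE 0.06, adjusted p = 7.88e-04 and 0.41, SE 0.06, adjusted p = 3.11e-04) but not with it (adjusted p = 0.294 and 0.353). In the time course, also at 1 mM and 1 h after the last dose, it was at 77.6, 76.2 and 76.9 TPM in AA and 58.3, 50.7 and 53.1 TPM at 2 Day. All 2 Day libraries were below AA (log2(fold change) -0.38, SE 0.08, adjusted p = 0.0180). At 3 Day, with 64.3, 70.3 and 76.5 TPM, it overlapped AA. The 5 Day group, at 59.9 and 70.2 TPM, was below AA too without passing (adjusted p = 0.599). A test of the difference between 1 mM Chronic 1 h and 5 Day, each against its own control and added after seeing the data, did not pass with all libraries (log2(fold change) 0.52, SE 0.25, adjusted p = 0.375, 0.665% of genes called) and passed without replicate 1 of Acute 24 h (log2(fold change) 0.51, SE 0.11, adjusted p = 0.00536, 6.03%). The controls of these experiments differ, PBS in one and ascorbic acid in the other, so vehicle and experiment cannot be told apart.

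IL17RD (chr3:57089982-57170306, minus strand) rose at 1 mM Acute 1 h, to 152, 155 and 154 TPM from 103, 86.4 and 97.6 TPM in PBS. The treated libraries were tightly grouped and far above the controls (log2(fold change) 0.75, SE 0.18, adjusted p = 0.0157), and the rise did not pass without replicate 2 of PBS or replicate 3 of Acute 1 h. At Chronic 1 h it was at 99.5, 109 and 113 TPM, overlapping PBS and below every Acute 1 h library (log2(fold change) -0.63, SE 0.18, adjusted p = 0.0417, where 11.3% of genes were called, and -0.61, SE 0.10, adjusted p = 3.42e-04 without replicate 1 of Acute 24 h). At 1 µM Acute 1 h IL17RD was at 49.3, 46.2 and 57.1 TPM against 72.0, 47.7 and 69.2 TPM, and the groups overlapped. The difference between the doses passed (log2(fold change) 1.04, SE 0.22, adjusted p = 0.0124), though not without replicate 2 of the 1 mM PBS libraries. In the time course it passed at 3 Day alone of the 4 times, rising to 121, 119 and 113 TPM from 87.4, 97.8 and 92.7 TPM (log2(fold change) 0.44, SE 0.09, adjusted p = 0.00999), and at 5 Day it was at 77.1 and 91.3 TPM (log2(fold change) -0.45, SE 0.11, adjusted p = 0.0508 against 3 Day).

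**Figure D4:**
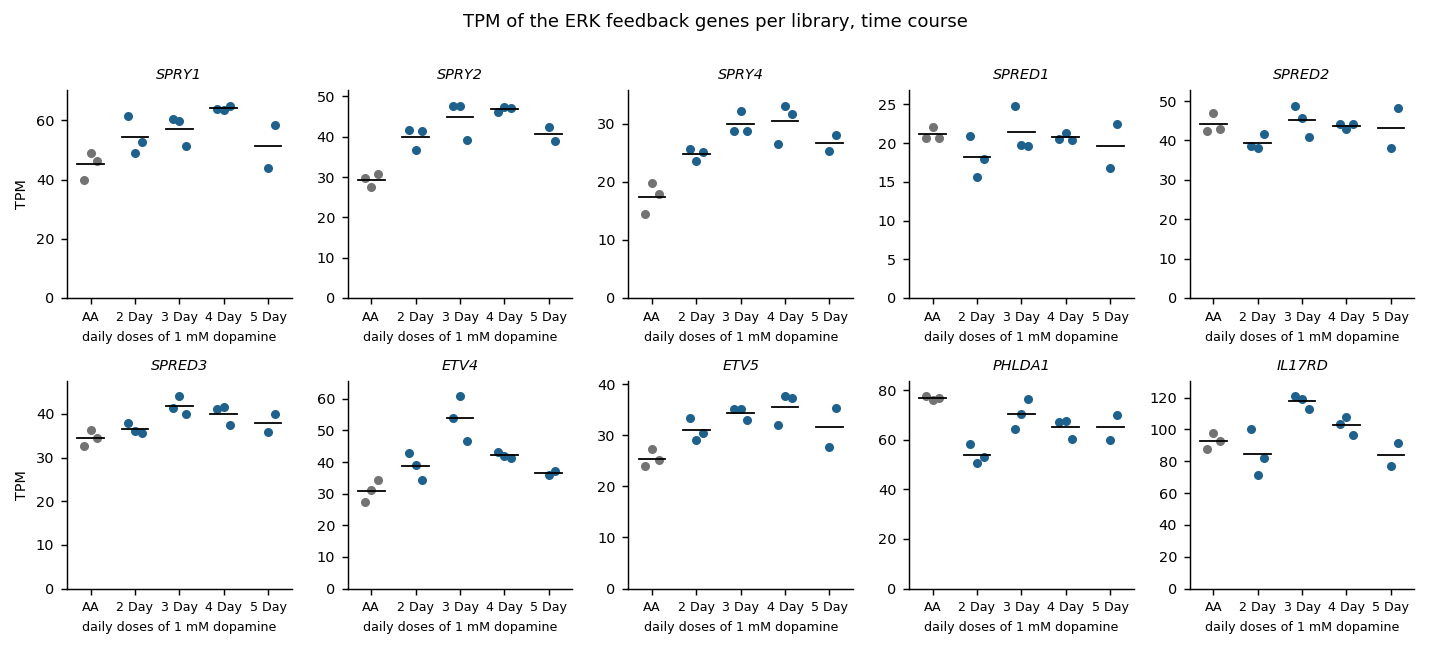
TPM of the 10 genes per library (points) in AA and after 2 to 5 daily doses of 1 mM dopamine, with black lines at group means. SPRY2, SPRY4 and ETV5 stand above AA at every time, ETV4 and IL17RD have their highest mean at 3 Day, and the 2 Day points of PHLDA1, 50.7 to 58.3 TPM, lie below those of AA.

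An interaction term for dose was tested at Chronic 1 h as well, and 0 members passed (0.087% of genes called, 0 also under DESeq2 and 0 with an unadjusted p under 0.05 in edgeR). Without replicate 1 of 1 mM Acute 24 h, SPRY1, SPRY2, SPRY4 and PHLDA1 also differed between doses at Acute 1 h, with SPRY2 at 1.27 (SE 0.27, adjusted p = 0.00589), where 5.1% of genes were called. All 4 were higher at 1 mM relative to their own PBS. 

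The 24 h groups were also compared with the 1 h groups directly. At 1 mM, 0 members passed in edgeR from Acute 1 h to Acute 24 h (3.49% of genes called, 4 members with an unadjusted p under 0.05 and 1 called by DESeq2) or from Chronic 1 h to Chronic 24 h (0.359%, 1 and 0). SPRY2 was, without replicate 1 of Acute 24 h, lower at Acute 24 h than at Acute 1 h (log2(fold change) -1.17, SE 0.19, adjusted p = 0.00133, 9.3% of genes called), and so was PHLDA1 (-0.39, SE 0.07, adjusted p = 0.00212), whose value with that library was 0.03. From Chronic 1 h to Chronic 24 h PHLDA1 fell beside SPRY4 (-0.34, SE 0.06, adjusted p = 0.00340) and SPRED2 rose (0.28, SE 0.07, adjusted p = 0.0216) without that library. At 1 µM, 0 members passed in edgeR at Acute 24 h against PBS (3.31% of genes called, 4 with an unadjusted p under 0.05 and 2 called by DESeq2) or at Chronic 24 h (0%, 0 and 0). The comparisons of 24 h with 1 h at 1 µM gave 0 as well, for Acute (0.592% of genes called, 2 and 0) and for Chronic (1.95%, 6 and 0). SPRY1, SPRY4 and PHLDA1 lay wholly below PBS at 1 µM Acute 24 h, as 8.27% of genes did, with SPRY4 at 6.57, 7.68 and 7.08 TPM (log2(fold change) -0.66, SE 0.23, adjusted p = 0.148).

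With the receptor agonists 0 members passed in edgeR, 0 in DESeq2 and 0 at an unadjusted p under 0.05, with 0.0124% of genes called for SKF82958 and 0% for quinpirole. Once replicate 1 of Quinpirole was left out, PHLDA1 rose with SKF82958, from 48.4, 47.8 and 51.5 TPM in Water to 69.7, 65.3 and 66.5 TPM (log2(fold change) 0.37, SE 0.06, adjusted p = 0.0120, 0.624% of genes called). The groups did not overlap, as was also so for SPRY1, SPRY4 and IL17RD, which lay wholly above Water (15.8% of genes did). SPRY4 was at 30.7, 39.9 and 33.8 TPM with SKF82958 and 25.9, 24.2 and 30.2 TPM in Water, a difference that did not pass (log2(fold change) 0.30, SE 0.10, adjusted p = 0.365). In the same comparison mesenchymal markers summed to 255 to 332 TPM with SKF82958 and 209 to 220 TPM in Water. Astrocyte markers were at 334 to 351 and 272 to 290 TPM, and neural progenitor markers at 1599 to 1842 and 1435 to 1565 TPM. With all libraries, where 0 members passed too, 0 of 6 mesenchymal and 0 of 6 astrocyte markers were called. Marker calls in the fit without replicate 1 of Quinpirole are not given here. Sums of neuron and MSN markers and of interneuron markers overlapped Water. The part of these cells in the result was not tested. With quinpirole, leaving out replicate 1, 0 members passed (0.184% of genes called) and the largest log2(fold change) was that of PHLDA1 (0.27, SE 0.07, adjusted p = 0.327).

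Other genes of the pathway were counted from 4 lists. Of 15 other ERK output genes, 10 rose at 3 Day, 7 at 2 Day and at 4 Day and 5 at 5 Day, and none of them fell. Of all genes 4.77%, 1.89%, 2.58% and 1.23% rose at 3, 2, 4 and 5 Day. EGR1, an immediate early transcription factor, had the smallest adjusted p-value at all 4 times, with log2(fold change) 3.32 at 3 Day (SE 0.20, adjusted p = 1.58e-07). DUSP6 and DUSP5, phosphatases that act on ERK, rose as well, by 1.35 (adjusted p = 2.32e-05) and 1.43 (adjusted p = 1.06e-05) at 3 Day, and DUSP4 by 0.54 (adjusted p = 3.77e-04). ETV1, the third PEA3-family factor, did not pass at 3 Day (-0.27, adjusted p = 0.196). 

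At 1 mM, 9 of the 15 rose at Acute 1 h, led by IER3, an early response gene (log2(fold change) 1.63, SE 0.29, adjusted p = 0.00338), and 3 at Chronic 1 h, led by the AP-1 subunit FOSL1 (2.99, SE 0.59, adjusted p = 0.0208). Without replicate 1 of Acute 24 h, 11 rose and 2 fell at Acute 1 h and 8 rose at Chronic 1 h. Of all genes 8.04% rose at Acute 1 h and 1.27% at Chronic 1 h with all libraries, and 19.9% and 9.25% without that library, where 19.9% fell at Acute 1 h. At Acute 24 h 5 rose, with FLRT3, a membrane protein that binds FGF receptors, first (1.64, SE 0.36, adjusted p = 0.0145), and without replicate 1 of that group 4 did, with FLRT3 at 0.81 (adjusted p = 0.00124). Of all genes 8.38% rose at Acute 24 h, and 11.1% without that library. EGR1 rose at Acute 1 h (5.01, SE 0.98, adjusted p = 0.00511) and Chronic 1 h (4.32, SE 0.96, adjusted p = 0.0349), and its 3.63 at Acute 24 h became 0.61 (adjusted p = 0.0437) without replicate 1 of that group. DUSP5 rose at Acute 1 h and Chronic 1 h (1.37, adjusted p = 0.0169, and 1.48, adjusted p = 0.0413), and DUSP6 passed at neither with all libraries (adjusted p = 0.0876 and 0.573) and at both without that library (0.82, adjusted p = 6.17e-06, and 0.41, adjusted p = 0.00394). With agonists 0 of the 15 passed with all libraries, and without replicate 1 of Quinpirole 5 rose with SKF82958 (0.612% of all genes) and 2 with quinpirole (0.184%), EGR1 among them (0.65, SE 0.11, adjusted p = 0.0132 and 0.89, SE 0.13, adjusted p = 0.00372).

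At 1 µM, 3 of the 15 rose at Acute 1 h and 5 at Chronic 1 h, in both cases led by EGR1 (log2(fold change) 4.34, SE 0.23, adjusted p = 1.58e-07 and 2.48, SE 0.21, adjusted p = 3.55e-05). Of all genes 3.25% and 1.75% rose there. DUSP4, DUSP5 and DUSP6 did not pass at 1 µM. At 1 µM Acute 24 h 1 rose and 1 fell, IER3 (-1.35, SE 0.18, adjusted p = 0.00139). EGR1 thus rose at 1 µM Acute 1 h, where SPRY1, SPRY2 and SPRY4 had log2(fold change) values of -0.39, -0.31 and -0.39 that did not pass.

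Of 24 growth factor ligands and receptors, of which 20 could be tested at 1 µM, 4 rose and 1 fell at 1 mM Acute 1 h (5 of 24, where 16% of all genes were called), with ERBB2 first (0.50, SE 0.10, adjusted p = 0.00667), and 2 rose and 1 fell at Acute 24 h (3 of 24, with 15.5% of all genes called), with the receptor MET first (1.52, SE 0.38, adjusted p = 0.0231, and 0.92, adjusted p = 0.0322, without replicate 1 of that group). GFRA1, the co-receptor of GDNF, fell at 1 mM Chronic 1 h (-0.59, SE 0.14, adjusted p = 0.0467) and Chronic 24 h (-0.69, SE 0.14, adjusted p = 0.0413) and at 1 µM Acute 24 h (-0.72, SE 0.13, adjusted p = 0.00859). In the time course, which had another control, it rose at 2, 3, 4 and 5 Day, by 0.52, 0.57, 0.47 and 0.57. Of 20 adaptors and Ras regulators, 6 fell and none rose at 1 mM Acute 1 h, where 7.94% of all genes fell. The ubiquitin ligase CBL fell at 1 µM Acute 1 h (-0.56, SE 0.11, adjusted p = 0.0106) and at 2 Day (-0.29, SE 0.08, adjusted p = 0.0448), and the adaptor SHC3 rose at 4 Day (0.31, SE 0.07, adjusted p = 0.0229). Of 17 genes of the Ras, RAF, MEK and ERK core, 2 rose at 1 mM Acute 1 h, where 8.04% of all genes did, NRAS first (0.44, SE 0.08, adjusted p = 0.00256), and 1 rose at each of 2, 3 and 4 Day, RPS6KA2, which encodes a kinase activated by ERK (0.26, 0.50 and 0.34). RPS6KA2 also had the smallest adjusted p-value of that list at 1 mM Acute 24 h (0.53, SE 0.08, adjusted p = 0.00215).

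Across the 18 conditions, the log2 group means of SPRY2 and SPRY4, each centred on the mean of its experiment, had a Pearson r of 0.908 with all libraries and 0.707 without the pair of libraries that stood apart. The points share controls and libraries, and this is a description with no test. Among 19098 genes, those most like SPRY2 were RRBP1 (r = 0.944), GADD45A (0.937) and SPRY4, and without those libraries DUSP5 (0.884), GADD45A (0.841) and SLC25A25 (0.834). SPRY4 was most like VASN both ways (0.938 and 0.928). ETV4 was most like TM4SF1 both ways (0.950 and 0.970), and IL17RD was close to LAPTM4B and WNT9A both ways (0.938 and 0.934 with all libraries). SPRY1 was most like RREB1 (0.956) with all libraries and RHOC (0.908) without those that stood apart. ETV5 was nearest to COQ10B (0.882) and then MS4A8 (0.858), SPRED1 to USP12 (0.932) and then CDK17 (0.914), SPRED2 to CDYL (0.939) and then DAB1 (0.879), SPRED3 to ABCF3 (0.895) and then STK10 (0.902), and PHLDA1 to DSEL both ways (0.866 and 0.786).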

How the data were processed

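RNA of hMSN-like cultures was sequenced in 54 libraries, of which 53 were analysed. Replicate 1 of 5 Day was not analysed here. According to the methods, the authors trimmed and mapped reads in CLC Genomics Workbench to GRCh38 with Ensembl annotation (hg38 per the labels). The deposited table of each library gave raw counts of exon, intron, total gene and uniquely mapped exon reads per gene, and TPM, which the authors made from exon reads per exon length, scaled to transcripts per 1000000. The strand setting and the sequencing provider of each library are not given in the sources used here, so reads of overlapping genes are uncertain. Libraries were grouped by their labelled treatment, and no 2 libraries held identical counts.

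Exon read counts went into edgeR 4.0.16 (R 4.3.3, filterByExpr with a minimum count of 10 and a minimum total of 15, TMM scaling, quasi-likelihood test), all libraries of an experiment in one fit over all genes, in 23 comparisons. P-values were adjusted by the Benjamini-Hochberg method over all genes of a comparison, and genes passed under 0.05. An SE was taken as the size of the log2(fold change) over the root of its F value. Intron reads were fitted likewise, scaled on intron reads and, as an alternative added after seeing the data, on exon reads. Interaction terms compared doses, each against its own PBS. DESeq2 1.42.0 and the other alternatives are in the closing section. Counts were simulated with the means, spread and depths of all libraries of an experiment, leaving out replicate 1 of 1 mM Acute 24 h. For 1 mM Acute 1 h against PBS, the test recovered 61.2%, 70.8% and 85.9% of genes changed 1.5-, 2- and 3-fold among 17789. For 1 µM Acute 1 h against PBS it recovered 6.25%, 22.4% and 53.1% of those among 16173 genes. Recovery was not simulated for the 1 mM fit that keeps this library, in which the SE of SPRY2 at Acute 1 h was larger.

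The members and the gene lists were chosen with earlier results of these data known, so no list supports a direction independently. Genes named from the 4 pathway lists were DUSP4, DUSP5, DUSP6, ETV1, EGR1 and, in each comparison with a control, the gene with the smallest adjusted p-value. A gene that this rule named is not reported here. Likeness was the Pearson r of log2(group mean TPM + 1), centred within experiments, among genes with a mean of at least 1 TPM. Plots used matplotlib 3.10.9.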

Additional observations from a re-analysis of the deposited data

Results flagged for a closer look

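The response of ETV4 to 1 h of dopamine differed between the doses. Its log2(fold change) from PBS at Acute 1 h was 0.51 at 1 mM but -1.18 at 1 µM. The difference of 1.71 (SE 0.29, adjusted p = 0.00152) passed a test of the difference itself. ETV4 was higher than all PBS libraries in 3 of 3 libraries at 1 mM and lower in 3 of 3 at 1 µM. The call held under every alternative tried, each library left out in turn included.

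The response of IL17RD differed in the same comparison, with 0.75 at 1 mM and -0.27 at 1 µM and a difference of 1.04 (SE 0.22, adjusted p = 0.0124). It was higher than all PBS libraries in 3 of 3 libraries at 1 mM and overlapped PBS at 1 µM. Without replicate 2 of the 1 mM PBS libraries this difference did not pass. The doses were given in separate experiments, so dose and experiment cannot be told apart, and exon reads were fewer at 1 µM Acute 1 h, where the lowest ETV4 library had 39.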

How the results depend on the processing

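Of 33 changes of single members that passed, 770 values under alternatives were computed, of which 634 passed in the same direction, 136 did not pass and 0 were reversed. The cause of the changes in counts of members was not tested. One value that had not passed was reversed, that of PHLDA1 from 1 mM Acute 1 h to Acute 24 h, which was 0.03 with all libraries, -0.39 without replicate 1 of Acute 24 h and at most 0.22 without any other library. With a log2(fold change) of at least 1 and 1 TPM also required, 0 members passed at 1 mM Acute 1 h, in both Chronic 1 h contrasts that had 1 and at 2 to 5 Day, 1 at 1 mM Acute 24 h and 1 for 1 µM Chronic against Acute 1 h. With total gene reads the counts were 7 at 1 mM Acute 1 h, 9 at Acute 24 h, 1 at Chronic 1 h, 2 for Chronic against Acute 1 h, 1 for 1 µM Chronic 24 h against 1 h, 1 at 5 Day and 7 between doses at Acute 1 h, where 47.2%, 43.8% and 27.9% of all genes were called at Acute 1 h, at Acute 24 h and between doses. With DESeq2 they were 2 at 1 mM Chronic 1 h, 1 at Chronic 24 h, 2 for Chronic against Acute 1 h, 1 for Acute 24 h against 1 h, 2 each at 1 µM Acute 1 h, Acute 24 h and Chronic 1 h, and 2 for 5 Day against 3 Day, where 2.4% to 15.5% of all genes were called. That last contrast gave 1 with uniquely mapped reads, 1 with DESeq2 size factors, 2 without a filter and 1 with at least 10 reads in every library, which gave 0 for 1 mM Chronic against Acute 1 h. Without a filter 0 passed at 1 µM Chronic 1 h and 1 for Chronic against Acute. With only the groups compared the counts were 8 at 1 mM Acute 1 h, 0 at Acute 24 h, 6 at Chronic 1 h, 6 for Chronic against Acute 1 h, 2 for Chronic 24 h against 1 h, 0, 0 and 0 in the 1 µM contrasts that had passed members, 7 at 4 Day, 0 at 5 Day and 1 with SKF82958. In these fits 45.5% of all genes were called at 1 mM Acute 1 h, 0% at Acute 24 h, 25.4% at Chronic 1 h, 44% for Chronic against Acute 1 h, 1.84% for Chronic 24 h against 1 h, 13.5% at 4 Day and 0.939% with SKF82958. Intron reads scaled on exon reads gave 4 at 1 mM Acute 1 h, 6 for Chronic against Acute 1 h, 1 at 1 µM Chronic 1 h, 1 for Acute 24 h against 1 h, 1 each at 2, 4 and 5 Day, 3 with quinpirole (60.2% of all genes called), and 0 between doses at Chronic 1 h. At 1 mM Acute 1 h 70.1% of all genes were called, and without replicate 1 of Quinpirole 0 members passed with quinpirole (0.0503% of all genes). Where no share of all genes stands beside a count in this section, the count shows only its dependence on the processing. It is then no result about the members.

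The labels do not say whether replicate numbers pair the libraries. Same-numbered libraries had residual correlations of -0.192 to 0.14 at 1 mM and -0.301 to 0.446 at 1 µM. The ranges were -0.181 to 0.167 in the time course and -0.151 to 0.118 with agonists. At 1 µM 14 of 30 such pairs exceeded 0.1, against 3 of 30 at 1 mM, so a pairing at 1 µM was not settled. With the replicate block 2 members passed at 1 mM Acute 24 h and 1 at 5 Day, and the other counts stayed within 1.5 times.

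Leaving out each library in turn gave 0 to 8 at 1 mM Acute 1 h, 0 to 7 at Acute 24 h, 0 to 5 at Chronic 1 h, 0 to 2 at Chronic 24 h, 0 to 4 for Chronic against Acute 1 h, 0 to 4 for Acute 24 h against 1 h and 0 to 3 for Chronic 24 h against 1 h. At 1 µM the ranges were 0 to 1 at Acute 1 h, 0 to 1 at Chronic 1 h, 0 to 3 for Chronic against Acute 1 h and 0 to 1 for Chronic 24 h against 1 h. They were 0 to 6 at 2 Day, 4 to 7 at 3 Day, 0 to 4 at 5 Day, 0 to 2 for 5 Day against 3 Day, 0 to 1 with SKF82958 and 1 to 6 between doses at Acute 1 h. Without replicate 1 of 1 mM Acute 24 h, intron reads gave 3 at Chronic 1 h, and 1 member differed between Chronic 1 h and 5 Day. The median depth was lowest at 1 µM and groups held 3 libraries at most, which limits the precision.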
